A study of Mus musculus with 6 samples.

Results

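The hypoxia-inducible factors (HIFs) and a small group of their regulators and targets were examined in embryonic heart ventricles of wild type mice and of mice with a knockdown (KD) of the long non-coding RNA Tbx5ua. The genes were the factor subunits Hif1a, Epas1 and Arnt, the oxygen-sensing genes Vhl, Egln1 and Egln3, and the target genes Ankrd37, Adm, Bnip3 and Ddit4. They were found by symbol in the deposited expression table, where all 10 had a row of their own among the 23284 genes listed. The WT group was 3 chimeric embryos made from wild type ES cells derived from C57BL/6 J (labelled C57BL/6), and the KD group was 3 chimeric embryos made from ES cells of the same strain with genotype Tbx5ua -/-, all taken at E9.5. The KD was made by genome editing: a transcription stop, built from repeated polyadenylation signals, was put into Tbx5ua on each chromosome copy. The ES cells were clonal, and the ES cell line behind each sequenced embryo is not given in the sources used here. In both groups the embryos were made by tetraploid complementation, so that the tissue of the embryo itself comes from these ES cells. Total RNA of the ventricle, 10 ng, was the input for Smart-Seq2, a method for small amounts of RNA. It was run with 12 cycles of preamplification and 9 of enrichment.

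HIFs are pairs of an oxygen-regulated alpha subunit, encoded by Hif1a or Epas1, and the stable partner encoded by Arnt. When oxygen is present, prolyl hydroxylases of the Egln family mark the alpha subunits, and the product of Vhl binds the mark and sends them to the proteasome. When oxygen is low, the alpha subunits accumulate as proteins, so the mRNA level of Hif1a does not by itself report the activity of the factor. The embryonic heart forms at low oxygen, and HIF activity in it is known to act on glycolysis and vessel growth. Egln3 and, less strongly, Egln1 are themselves known HIF targets.

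Each gene had 1 expression value per group, in FPKM (fragments scaled to transcript length and to the mapped fragments of the library), a unit in which levels of different genes can be set side by side. No values of single embryos and no read counts were present. The spread between embryos and the depth of the libraries are therefore unknown and no SD can be given. The table also holds the authors' own test of KD against WT, which was not used here, so each difference below compares 2 group values with no replicate check. Differences are given as log2(FPKM + 1) in KD minus WT. A gene was called past a fold when this difference reached log2 of that fold in either direction. As the background served 11366 genes whose mean of the group values was at least 1 FPKM, and all 10 genes were among them. The FPKM values of all genes summed to 859452 in WT and 877889 in KD. Tbx5ua was not analysed here, so it was not used to check the group labels.

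HIF acts on its targets through short DNA motifs, so the sequences before the starts of target genes are shown first. The HIF pair binds a core of 5 bases, ACGTG or GCGTG. Both cores were searched on both strands in the 250 bases before the RefSeq transcription start (build GRCm38.p6), a window held by the sequence table for 9 of the 10 genes. Epas1 had no entry. ACGTG on one strand overlaps ACGTG on the other in the palindrome CACGTG, which was counted as a match on each. At least 1 core was found for 8 of the 9 genes, and the exception was Vhl. Among all 32851 promoter windows of this length, 38.6% held at least 1 core, 16.6% held ACGTG and 28.2% held GCGTG. Each of the cores was found in 6 of the 9 windows. A match describes the letters only and is no evidence of binding in these hearts.

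Upstream sequences are given for Bnip3, Adm, Ddit4 and Egln3, whose windows could be trimmed to bases outside annotated exons and which carry different arrangements of the core. They are written 5′ to 3′ on the strand of the gene, and capitals mark the cores, where CACGC and CACGT are the cores read from the other strand. They come from chr7:138909520-138909756 (minus strand) for Bnip3, chr7:110627407-110627656 (plus strand) for Adm, chr10:59951835-59952020 (minus strand) for Ddit4 and chr12:54203875-54204124 (minus strand) for Egln3.
Bnip3: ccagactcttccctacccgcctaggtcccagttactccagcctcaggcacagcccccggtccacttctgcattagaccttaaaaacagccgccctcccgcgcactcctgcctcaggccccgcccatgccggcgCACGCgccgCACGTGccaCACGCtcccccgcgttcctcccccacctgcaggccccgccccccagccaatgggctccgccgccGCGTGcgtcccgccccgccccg
Adm: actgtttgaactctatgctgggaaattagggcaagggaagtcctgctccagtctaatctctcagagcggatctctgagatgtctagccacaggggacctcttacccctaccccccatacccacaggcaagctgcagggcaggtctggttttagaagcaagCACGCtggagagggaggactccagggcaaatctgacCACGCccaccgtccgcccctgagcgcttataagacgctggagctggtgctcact
Ddit4: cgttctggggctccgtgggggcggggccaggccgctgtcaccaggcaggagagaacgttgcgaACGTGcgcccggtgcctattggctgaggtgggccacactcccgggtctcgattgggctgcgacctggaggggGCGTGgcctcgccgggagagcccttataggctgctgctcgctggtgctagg
Egln3: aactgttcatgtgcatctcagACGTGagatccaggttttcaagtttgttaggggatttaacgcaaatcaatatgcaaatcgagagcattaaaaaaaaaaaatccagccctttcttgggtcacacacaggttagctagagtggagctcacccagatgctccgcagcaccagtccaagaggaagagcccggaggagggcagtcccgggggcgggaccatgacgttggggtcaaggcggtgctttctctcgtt

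The window of Bnip3 held 5 matches in 4 blocks, with the palindrome CACGTG from -108 to -103 relative to the start and a GCGTG core on the opposite strand on either side of it, at -117 and -99. Adm had 2 GCGTG cores, both on the opposite strand, at -90 and -54. Ddit4 had an ACGTG core at -187 and a GCGTG core at -115, both on the strand of the gene. Egln3 had a single ACGTG core at -229. Ankrd37, whose sequence is not printed because its window lies within a longer annotated form of the gene, had 4 matches. The nearest of them was an ACGTG core at -6, outside the longest exon-free stretch of the window, which ends at -18. Hif1a, Egln1 and Arnt had 3, 2 and 1 matches. The window of Hif1a also lies within a longer annotated form of its gene.

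**Figure D1:**
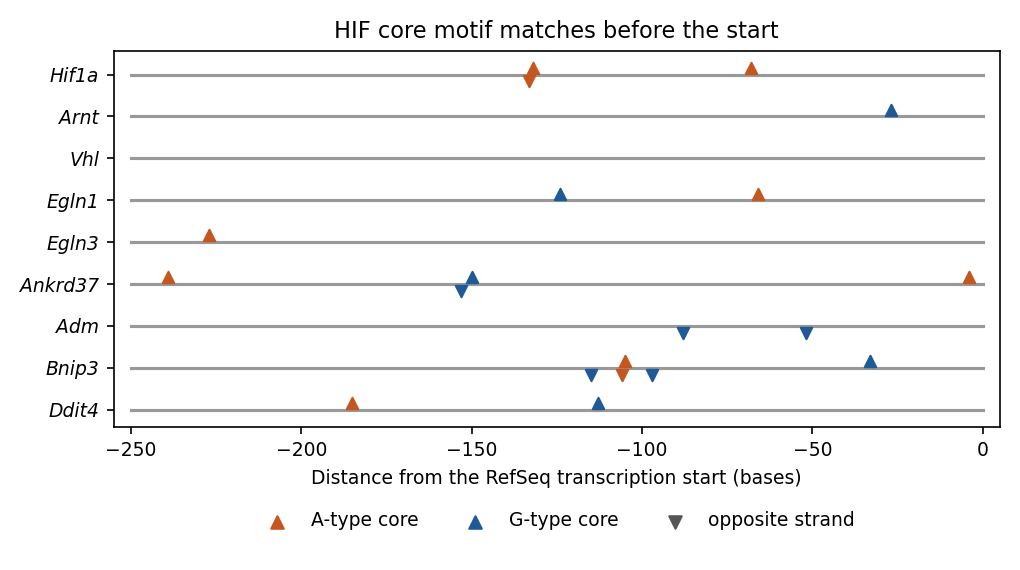
Positions of the HIF core motif in the 250 bases before the RefSeq transcription start of 9 genes, in bases from the start. Orange marks are ACGTG and blue marks GCGTG, upward triangles lie on the strand of the gene and downward triangles on the opposite strand. Bnip3 and Ankrd37 hold the most matches, with 5 and 4, and Vhl holds 0.

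The oxygen-regulated alpha subunits differed widely in level. Hif1a, on chromosome 12 from 73907867 to 73947530 (build mm10, as are the gene positions that follow), had 117 FPKM in WT against 103 in KD. It was thus among the higher genes of the ventricle, above 91.1% of the background genes in WT. The difference was -0.19 on the log2 scale, or 12.7% lower in KD. Epas1, which encodes the alpha subunit HIF-2 alpha and is best known from endothelial cells, lies on chromosome 17 from 86753864 to 86833410. It had 3.20 FPKM in WT against 3.89 in KD, a difference of 0.22. That difference was equalled or exceeded by 28.5% of the background genes, and by 39.8% of the 3662 genes with a mean from 1 to 5 FPKM. Hif1a was 36.7 times as abundant as Epas1 in WT and 26.4 times as abundant in KD, so the ratio was 28.2% lower in KD. Hif1a mRNA remained far the more abundant of the alpha subunit mRNAs in both groups.

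Arnt, the common partner subunit, lies on chromosome 3 from 95434390 to 95497239. It had 10.3 FPKM in WT against 9.23 in KD, a difference of -0.14. The ratio of Hif1a to Arnt was almost the same in both groups, 11.4 in WT and 11.1 in KD. In the background genes, 47.5% differed between the groups by at least as much as Arnt and 33.8% by at least as much as Hif1a. Among the 1176 genes with a mean of at least 100 FPKM, where differences were smaller, 17.7% differed by at least as much as Hif1a.

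Of the oxygen-sensing genes, Vhl was lower in KD and the hydroxylases were slightly higher. Vhl, which encodes the substrate-binding part of the ubiquitin ligase for the alpha subunits, lies on chromosome 6 from 113624021 to 113631633. It had 15.8 FPKM in WT against 13.2 in KD, a difference of -0.24 that was equalled or exceeded by 24.1% of the background genes. This was the largest difference toward lower values among the 10 genes. Egln1, the main hydroxylase of HIF-1 alpha at normal oxygen, lies on chromosome 8 from 124908587 to 124949254. It had 12.5 FPKM in WT against 13.8 in KD, a difference of 0.13. Egln3, the hydroxylase whose expression responds most to low oxygen, lies on chromosome 12 from 54178981 to 54203874. It was the lowest of the 10 genes, with 2.86 FPKM in WT against 3.21 in KD, a difference of 0.12. In the background, 49.3% of genes differed by at least as much as Egln1 and 52.4% by at least as much as Egln3. The ratio of Egln1 to Egln3 was 4.36 in WT and 4.30 in KD.

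The target genes were all higher in KD, by small amounts. Ddit4, which encodes REDD1, an inhibitor of the growth kinase complex mTORC1, lies on chromosome 10 from 59949675 to 59951770. It had 6.26 FPKM in WT against 8.16 in KD. The difference of 0.33, or 30.3% on the FPKM values, was the largest among the 10 genes, and 13.2% of the background genes differed by at least as much. Adm, which encodes the vasoactive peptide adrenomedullin, lies on chromosome 7 from 110627669 to 110629819. It had 4.82 FPKM in WT against 6.15 in KD, a difference of 0.30, equalled or exceeded by 16.6% of the background genes.

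Ankrd37, a small ankyrin-repeat gene known to respond to HIF-1, lies on chromosome 8 from 45996908 to 45999850. It had 12.0 FPKM in WT against 14.1 in KD, a difference of 0.21. Its exons overlap those of Ufsp2, with 40.4 FPKM in WT and in KD, and of Lrp2bp, with 0.342 FPKM in WT against 0.182 in KD. The reads were not stated to be counted by strand, so shared reads cannot be told apart. Bnip3, a mitochondrial membrane protein gene that acts in mitophagy, lies on chromosome 7 from 138890836 to 138909506. It was the highest of the 10 genes, with 219 FPKM in WT against 236 in KD. Its difference of 0.11 was the smallest of the 10 on the log2 scale although it was the largest gain in FPKM, 17.2. Of the background genes, 56.9% differed by at least as much as Bnip3 and 30.5% by at least as much as Ankrd37. Among the genes with a mean of at least 100 FPKM, 41.4% differed by at least as much as Bnip3. Annotated antisense genes without a row in the table, Gm45507 and Gm15283, also share exonic bases with Bnip3 and Hif1a, and so does the sense gene Gm49321 with Hif1a.

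**Figure D2:**
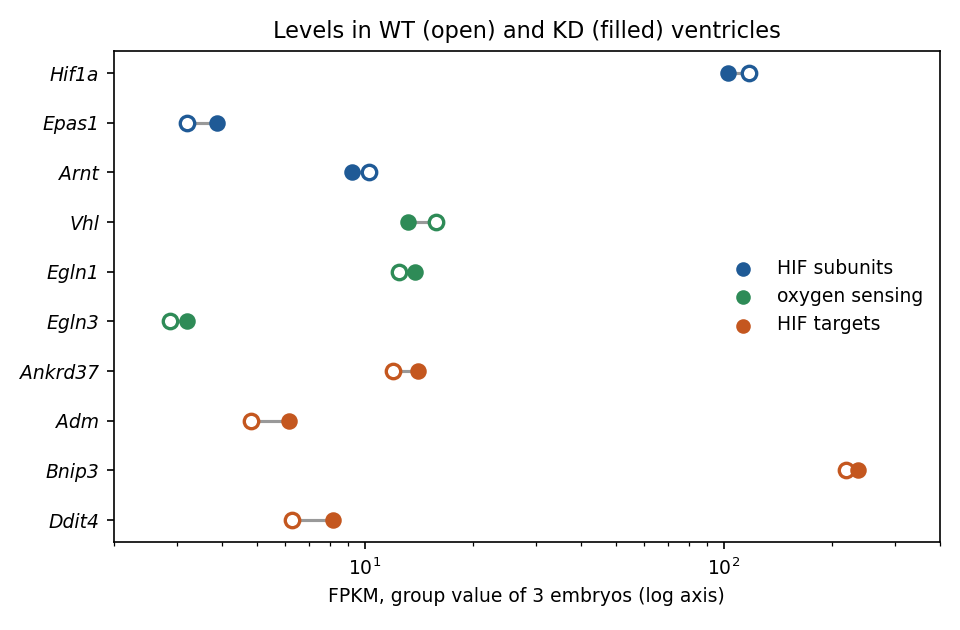
FPKM group values of the 10 genes on a log axis, 1 open point for WT and 1 filled point for KD, each combining 3 embryos and without an error bar because no values of single embryos were present. The levels run from 2.86 FPKM for Egln3 to 236 FPKM for Bnip3, and the filled points lie to the left of the open points for Hif1a, Arnt and Vhl.

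The order of the levels was the same in both groups except in the middle. In WT it ran from Bnip3 and Hif1a through Vhl, Egln1, Ankrd37, Arnt, Ddit4, Adm and Epas1 to Egln3. In KD Ankrd37 moved from rank 5 to 3 and Vhl from rank 3 to 5. Without the spread between embryos it cannot be said which neighbours in this order differ. Vhl, Egln1 and Ankrd37 lay within 12.0 to 15.8 FPKM in WT and within 13.2 to 14.1 FPKM in KD.

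Of the 10 genes, 0 were past 1.5-fold in either direction. In the background 2.05% of genes were higher and 1.36% were lower in KD by that fold. With a lower threshold, a difference of 0.32 on the log2 scale, 1 of the 10 was called higher, Ddit4, and 0 were called lower, against 8.23% and 6.08% of the background. That count rested on the scaling and on the pseudocount. With each group rescaled to the same sum, the difference of Ddit4 was 0.31, below the threshold. With no pseudocount Adm passed the threshold as well, which made 2 of 10, against 20.3% of the background in either direction. Both counts are near the background share. Without a fold threshold, 7 of the 10 were higher in KD, namely the 4 target genes, Egln1, Egln3 and Epas1, and 3 were lower, where 50.7% of the background genes were higher. The median difference over the 10 genes was 0.13, and over the background it was 0.00363. The median size of the difference, regardless of direction, was 0.20 over the 10 genes and 0.13 over the background.

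**Figure D3:**
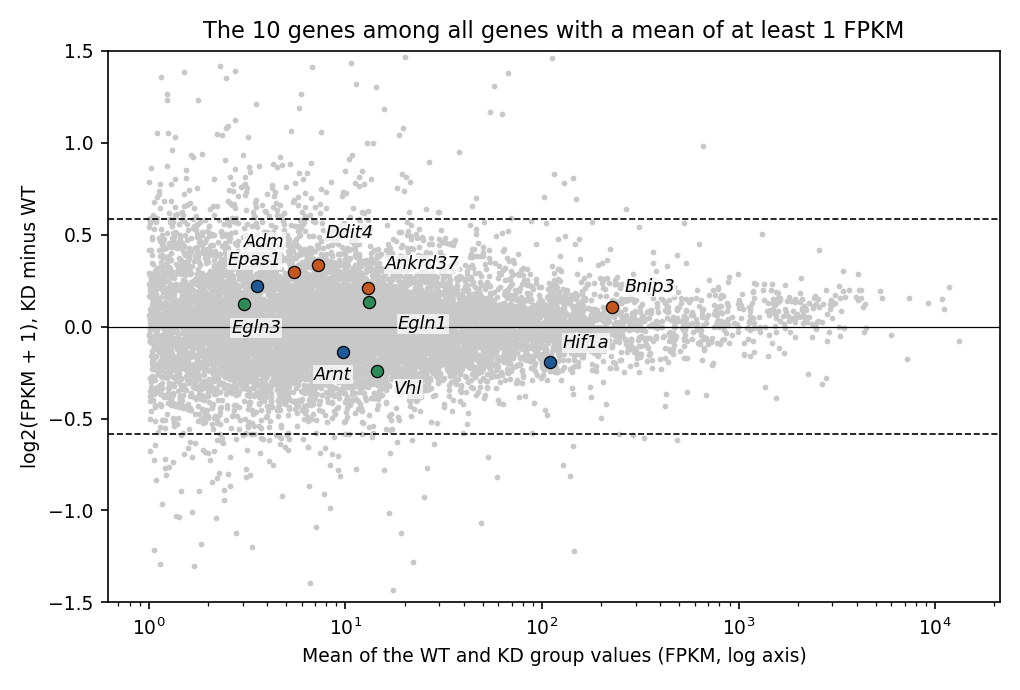
Difference in log2(FPKM + 1), KD minus WT, against the mean of the group values on a log axis, for 11366 background genes (grey) and the 10 HIF factors, regulators and targets (coloured by role as in the plot of levels). Dashed lines mark 1.5-fold, and 83 background genes lie beyond the plotted range of 1.5. All 10 genes lie between the dashed lines, from -0.24 for Vhl to 0.33 for Ddit4.

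To see whether the direction of the 4 target genes extended to others, 30 further known HIF targets were read from the table. They include regulators of glycolysis such as Pfkfb4, while the glycolytic targets described next form a list of their own. Of the 30, 26 had a mean of at least 1 FPKM, 14 of them higher and 12 lower in KD, with a median of 0.02. Of the 26, 1 was past 1.5-fold, Ndrg1, a stress-responsive gene with 0.892 FPKM in WT against 2.11 in KD (difference 0.72). It passed the filter on the mean only through KD, and among all genes with a mean from 1 to 5 FPKM 5.24% were past 1.5-fold. With no pseudocount Pfkfb4, a regulator of glycolysis, was also past 1.5-fold, in the opposite direction, with 1.70 FPKM in WT against 1.11 in KD. At that setting 6.53% of the background was past 1.5-fold. Fam162a, the highest of the list and a mitochondrial protein gene, had 643 FPKM in WT against 767 in KD, a difference of 0.25. Bnip3l, the close relative of Bnip3 in mitophagy, had 71.9 FPKM in WT against 87.4 in KD, a difference of 0.28. The ratio of Bnip3 to Bnip3l was 3.05 in WT and 2.70 in KD. Vegfa, the vascular growth factor, was low, with 2.23 FPKM in WT against 2.75 in KD. Higd1a, also mitochondrial, was nearly level at 169 and 171 FPKM. Car9, a carbonic anhydrase widely used as a marker of hypoxia, was below 1 FPKM in both groups, with 0.260 FPKM in WT against 0.435 in KD. Epo was listed at 0 in WT and at 0.0711 FPKM in KD.

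The glycolytic HIF targets ranged from low to very abundant and did not share a direction. Of 18 such genes, all with a mean of at least 1 FPKM, 9 were higher and 9 lower in KD, 0 were past 1.5-fold, and the median difference was 0.01. Ldha, lactate dehydrogenase, had 3453 FPKM in WT against 3428 in KD, and Gapdh had 2746 FPKM in WT against 2881 in KD. Slc2a1, the glucose transporter GLUT1, had 561 FPKM in WT against 499 in KD, a difference of -0.17. Pdk1, which holds pyruvate back from the mitochondria, had 42.0 FPKM in WT against 40.5 in KD.

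The other regulators of the pathway were likewise mixed. Of 13 genes, 12 had a mean of at least 1 FPKM, with 5 higher and 7 lower in KD, 0 past 1.5-fold and a median of -0.02. Hif1an, which encodes the asparaginyl hydroxylase FIH that blocks coactivator binding, had 9.60 FPKM in WT against 7.97 in KD, a difference of -0.24 like that of Vhl. Egln2, the remaining HIF prolyl hydroxylase, had 41.7 FPKM in WT against 41.0 in KD, which made it the most abundant Egln mRNA in both groups. Hif3a had 2.89 FPKM in WT against 3.49 in KD. Arnt2 was below 1 FPKM in both groups, with 0.426 and 0.364 FPKM, far below Arnt. Tceb1 and Tceb2, the elongins that join Vhl in the ligase, had 238 and 1243 FPKM in WT and 230 and 1426 FPKM in KD.

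Genes that work with the individual targets were read in the same way. Around Adm the list included the receptor gene Calcrl and its Ramp partners. Calcrl had 10.2 FPKM in WT against 12.0 in KD, and Ramp2 had 153 FPKM in WT against 170 in KD. Ramp1 had 17.8 FPKM in WT against 15.1 in KD. Ramp3 was below 1 FPKM in both groups, with 0.176 FPKM in WT against 0.470 in KD. Of 6 genes in this list 4 had a mean of at least 1 FPKM, 2 of them higher and 2 lower in KD. Of 8 mitophagy genes around Bnip3, which again include Bnip3l, 7 had that mean, with 6 higher and 1 lower and a median of 0.13. In the background 50.7% of genes were higher. The highest of the list, Map1lc3a and Map1lc3b, had differences of 0.13 and 0.02, and Sqstm1 had 0.004. Map1lc3b and Sqstm1 lay so near 0 that their direction, and with it the split, depends on the scaling.

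Of 10 genes around Ddit4 that act on mTORC1 or in the stress response linked to it, 9 had a mean of at least 1 FPKM, and 3 were higher and 6 lower in KD, with a median of -0.22. Atf4, a transcription factor of that stress response known to act on Ddit4, had 103 FPKM in WT against 85.5 in KD, a difference of -0.26. Ddit3, its downstream factor CHOP, had 15.5 FPKM in WT against 10.8 in KD, a difference of -0.48. Trib3, another gene of that response, had 2.07 FPKM in WT against 2.38 in KD, a difference of 0.14. In these 3 lists 0 genes were past 1.5-fold. Over all 6 lists, with each gene counted once, 75 of 84 genes had a mean of at least 1 FPKM, 38 were higher and 37 lower in KD, and 1 was past 1.5-fold. That split depended on the scaling, since 33 of the 75 were higher once each group was rescaled to the same sum.

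**Figure D4:**
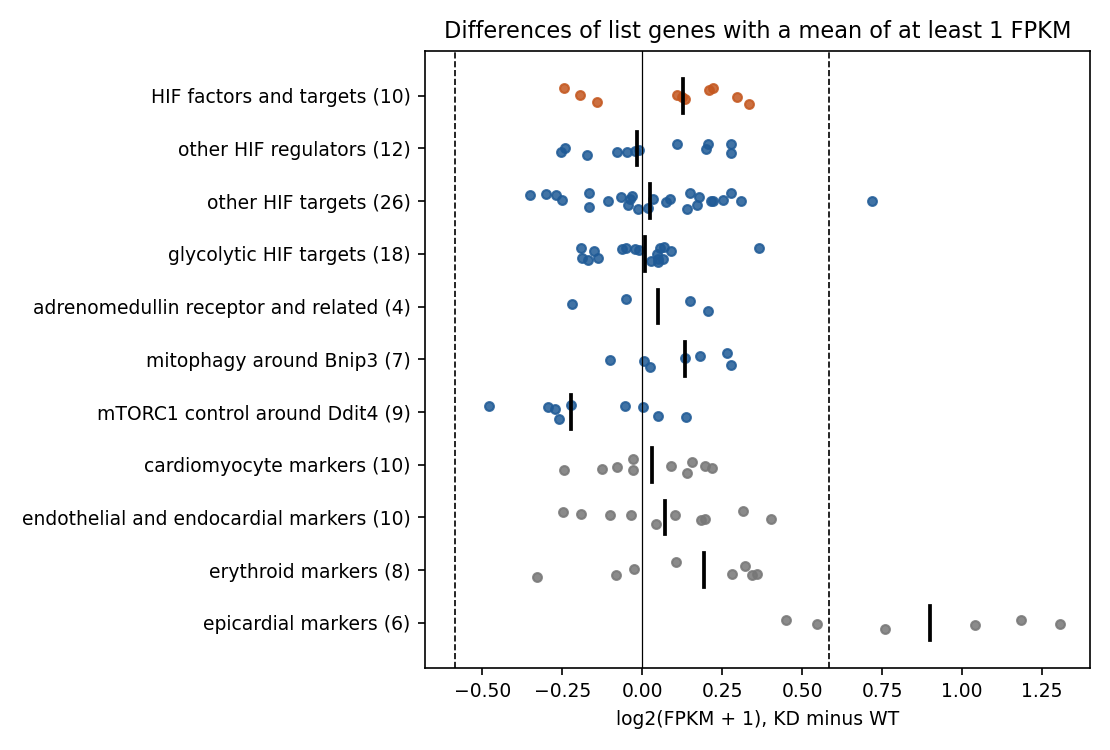
Difference in log2(FPKM + 1), KD minus WT, for genes with a mean of at least 1 FPKM, 1 point a gene, by list, with the number of genes in brackets. Black bars are medians, dashed lines mark 1.5-fold, and points are shifted vertically only to separate them. The HIF factors and targets have a median of 0.13, the further HIF targets 0.02 and the glycolytic targets 0.01, while the epicardial markers have a median of 0.90.

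Markers of the cell types in or near the ventricle were read beside these values, since in bulk tissue a change in the number of cells of a type and a change in RNA per cell cannot be told apart. Cardiomyocyte markers were abundant, as the labelled tissue calls for. All 10 had a mean of at least 1 FPKM, led by Myl7 and Myl2, with 5 higher and 5 lower in KD. Their summed level was 36863 FPKM in WT against 38652 in KD. That sum rests on few genes: Myl7 was lower in KD, with 13643.1 FPKM in WT against 12907.4. Myl2 was higher, with 10924.4 FPKM in WT against 12701.5 in KD. Of 10 endothelial and endocardial markers 6 were higher and 4 lower, with a sum of 252 FPKM in WT against 283 in KD and a median of 0.07. The rise of the sum came from the highest markers, Egfl7 and Emcn. They had 71.4 and 43.1 FPKM in WT against 89.1 and 57.4 in KD. The differences in this list ran from -0.25 to 0.40. Epas1 and Calcrl, which endothelial cells are known to express, had differences of 0.22 and 0.21, within that range of both directions.

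All 6 epicardial markers were higher in KD, 4 of them past 1.5-fold, with a sum of 47.0 FPKM in WT against 95.9 in KD. Of 10 erythroid markers 8 had a mean of at least 1 FPKM, 5 higher and 3 lower (Hba-a1, from a row merged with Hba-a2, was not among them), with a sum of 11774 FPKM in WT against 11940 in KD. None of the 8 macrophage markers and none of the 6 hepatic and yolk sac markers reached a mean of 1 FPKM. The macrophage markers summed to 2.21 FPKM in WT against 1.65 in KD, and the hepatic and yolk sac markers to 0.613 FPKM in WT against 1.38 in KD, with Alb and Fgb listed at 0 in both groups. The part of these cell types in the differences of the HIF factors and targets was not tested.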

How the data were processed

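Ventricles of 3 WT and 3 KD embryos at E9.5 were sequenced from single-end Smart-Seq2 libraries, and samples were grouped by their titles. The authors deposited 1 table from Cuffdiff with an FPKM value per gene and group, KD under the name KO. The submitters' processing notes also name TopHat, Bowtie2 and build mm10, without versions or annotation. The table's columns of fold changes, test statistics, p-values and q-values hold the authors' own comparison and were not used. It had 0 columns of single embryos, so depth and counting intervals were not available and no test across embryos was made.

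Positions were printed with 1 added to the start: of 20862 genes matched by symbol to GENCODE M21, 9652 then equalled a transcript start, against 944 as given. Differences were computed as log2(FPKM + 1), KD minus WT, over genes with a mean of at least 1 FPKM, and called past 1.5-fold. The HIF genes and all lists were chosen with earlier results of these data known, and older symbols were matched by hand-written aliases. Hba-a1 and Eno1 were found only in rows that merge them with Hba-a2 and Gm5506, so their values are uncertain. Genes named from a list were those past 1.5-fold, the 2 with the highest mean, and a preset group of defining genes. Trib3, Pfkfb4, Ramp3 and Sqstm1 were named after their values were seen. For epicardial, erythroid and endothelial markers counts, sums and medians are printed. Promoter windows came from RefSeq (GRCm38.p6). The alternatives were other folds, pseudocounts, filters and scalings, and, chosen after seeing the data, a lower fold joined with other pseudocounts. Scripts were tested on simulated data. Python 3.11.15, NumPy 2.4.6, pandas 2.3.3 and Matplotlib 3.10.9 were used.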

Additional observations from a re-analysis of the deposited data

How the results depend on the processing

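The count of the 10 HIF factors, regulators and targets past 1.5-fold was 0 and became 1 (Ddit4) at the lower threshold of 0.32 on the log2 scale. Ddit4 fell below that threshold, at 0.31, with each group rescaled to the same sum. With that threshold and a pseudocount of 0.1 or none, chosen after seeing the data, the count was 2 (Ddit4 and Adm). It stayed 0 at 2-fold, with a pseudocount of 0.1 or none, with no filter, and under the 3 other scalings, and was 0 of the 8 genes left with a mean of at least 5 FPKM, which removes Epas1 and Egln3. Of the 6 lists of other genes, 1 gene was past 1.5-fold. The count was 4 of 75 genes at that lower threshold, or 8 with a pseudocount of 0.1 and 9 with none. At these settings 14.3%, 20.1% and 20.3% of the background passed. At 2-fold the count was 0. For 1.5-fold it was 2 with no pseudocount (Ndrg1 higher and Pfkfb4 lower in KD). It was 0 with a mean of at least 5 FPKM, a filter that removes Ndrg1. The background had 1.21% of genes past 2-fold. Past 1.5-fold it had 6.48% with a pseudocount of 0.1, 6.53% with none and 2.54% with a mean of at least 5 FPKM. Each of the 10 genes kept its direction under every pseudocount and scaling run, from 0.31 to 0.38 for Ddit4, 0.28 to 0.35 for Adm, 0.08 to 0.11 for Bnip3, -0.22 to -0.19 for Hif1a and -0.27 to -0.24 for Vhl. The medians of the further HIF targets and of the glycolytic targets lay near 0 and changed sign, to -0.01 and -0.02, when each group was rescaled to the same sum. With no filter on low values the median of the further HIF targets went from 0.02 to 0.08, that of the adrenomedullin list from 0.05 to 0.18 and that of the erythroid markers from 0.19 to 0.05. The erythroid median was 0.11 with a mean of at least 5 FPKM, and the adrenomedullin median 0.02 with the rescaled sums. The median of the other regulators went from -0.02 to -0.05 with the rescaled sums and to -0.03 with a mean of at least 5 FPKM, and that of the endothelial markers from 0.07 to 0.04 with the rescaled sums. That rescaling moved the median of the background to -0.02.

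No paired analysis was possible because a single value per group is given in the table used here. For the same reason the alternatives that leave out a replicate or use the replicate number as a block were not run. Without depth, how far low levels such as those of Egln3 and Epas1 can be resolved is unknown.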
